A study of Rattus norvegicus with 125 samples.

Results

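The genes followed were 10 targets of NRF2: Hmox1, Nqo1, Gclc, Gclm, Slc7a11, Gsr, Txnrd1, Srxn1, Sqstm1 and Osgin1. They were chosen by name, with earlier results of these data known. A probe set was used where the platform annotation gave it 1 of these symbols and no other. All 10 were measured, out of 13438 genes on the array, through 17 probe sets. Each gene was read from its probe set with the highest mean in the organ, which was the same probe set in every organ for each of the 10. Gclc and Txnrd1 had 2 probe sets, Srxn1 had 3 and Sqstm1 had 4.

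NRF2, encoded by Nfe2l2, is a transcription factor that is held at a low level by KEAP1, an adaptor that passes it to a ubiquitin ligase for degradation. Oxidants and electrophiles that modify cysteines of KEAP1 let NRF2 accumulate, pair with a small MAF protein and bind antioxidant response elements in the DNA near its targets. BACH1, a heme-sensing repressor, competes for some of the same elements, and Hmox1 is the best known gene under its control. The targets make glutathione, reduce thioredoxin and peroxiredoxins, degrade heme and detoxify quinones. The sequestosome protein encoded by Sqstm1 binds KEAP1 and carries it to autophagy, so it both responds to NRF2 and acts upstream of it.

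The study exposed adult male Sprague-Dawley rats by whole-body inhalation to phosphine (PH3), a gas used to fumigate grain and known to block mitochondrial respiration, or to air. PH3 rats breathed 387 ppm over 40 min, which makes 15480 ppm × min and is a low exposure by the submitters' own term, and Air rats 0 ppm. RNA from frozen, powdered organs was labelled by a method that copies from the 3' end and hybridised to Affymetrix arrays, and the deposited values are log2 signals. There were 125 arrays from 48 rats: 32 of brain, 29 of heart, 32 of kidney, 11 of liver and 21 of lung. The PH3 and Air groups were liver at 6 h after exposure, lung at 3 h, at 24 h and after 1 week, and the 3 other organs at 1, 3, 6 and 24 h. A group held 4 rats, apart from 3 PH3 and 2 Air rats in heart at 24 h, 2 Air rats in lung at 3 h and 3 PH3 rats in lung at 1 week. A further 3 PH3 livers at 3 h have no Air counterpart here. Organs at a given time came mostly from the same rats, and PH3 and Air rats were different animals. Because each sample is a whole organ, fewer cells of a type and less RNA per cell cannot be told apart.

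By the markers of their own organ, the arrays matched their labels. The mean signal of brain markers ran from 10.49 to 10.98 on brain arrays, and that of the kidney, lung, heart and hepatocyte markers on their own organs' arrays was at least 11.74. Hepatocyte markers also gave signal on arrays of other organs, with means up to 9.59 on brain and 10.5 on kidney arrays. Arrays of a group correlated at 0.951 to 0.994. By mean correlation with its group, lung Air rat 84 at 24 h was lowest (0.962), and kidney PH3 rat 122 at 3 h was the lowest kidney array (0.969) and had the lowest kidney marker mean of the kidney arrays. Heart PH3 rat 141 at 6 h was lowest in heart (0.974), and some of the results it or rat 122 weighs on are given without it too. The values ran up to 14.41, and arrays have no read depth, so their number limits the precision. The rats are separate animals by their numbers in the labels. Below, a change is the log2 signal in PH3 rats less that in Air rats, given ± its standard error in the limma fit, and a gene passed where its p, adjusted over all 13438 genes of the comparison, was under 0.05.

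The promoters below are shown because an antioxidant response element is read from such sequence, and because Sqstm1 is the gene that passed. RefSeq promoter sequences of GRCr8, covering 250 bases before to 50 after a gene's start, matched 8 of the 10 genes and gave 9 promoters, since Txnrd1 has 2 starts. The core TGACNNNGC, searched on both strands, was found in 2 of the 9 promoters, against 12.1% of all 33469 rat promoters of the same length. In the sequences, capitals mark this core as it lies on the strand of the gene. In Gclm it starts at position -172 from the gene's start and reads TGACTAAGC on the opposite strand. In the downstream start of Txnrd1 it starts at position -78 and reads TGACAAAGC on the opposite strand. The Sqstm1 window holds no match to these letters.
Gclm, chr2:213031885-213032184, plus strand: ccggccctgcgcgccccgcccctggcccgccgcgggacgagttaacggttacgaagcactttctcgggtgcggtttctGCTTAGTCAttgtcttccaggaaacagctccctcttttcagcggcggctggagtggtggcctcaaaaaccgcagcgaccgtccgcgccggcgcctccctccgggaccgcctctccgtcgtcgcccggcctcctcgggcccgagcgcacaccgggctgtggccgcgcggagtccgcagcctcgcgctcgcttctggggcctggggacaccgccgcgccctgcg
Txnrd1, chr7:22755855-22756154, minus strand: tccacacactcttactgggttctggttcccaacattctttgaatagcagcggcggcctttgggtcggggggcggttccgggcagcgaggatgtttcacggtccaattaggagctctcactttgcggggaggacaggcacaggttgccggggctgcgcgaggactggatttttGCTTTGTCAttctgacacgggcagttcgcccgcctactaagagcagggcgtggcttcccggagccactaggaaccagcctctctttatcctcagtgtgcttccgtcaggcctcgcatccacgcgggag
Sqstm1, chr10:35037701-35038000, minus strand: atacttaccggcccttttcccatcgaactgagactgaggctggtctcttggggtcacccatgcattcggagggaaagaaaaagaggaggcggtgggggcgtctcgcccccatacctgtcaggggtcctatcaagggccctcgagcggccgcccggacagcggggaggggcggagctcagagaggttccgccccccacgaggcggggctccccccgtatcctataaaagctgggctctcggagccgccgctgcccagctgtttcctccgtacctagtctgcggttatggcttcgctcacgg
A match is a description of letters and not of binding, and no match says only that the core is not in the window. The AP-1 motif TGACTCA, or TGAGTCA on the other strand, was found in 4.63% of all promoters, and Srxn1 was the only 1 of the 9 promoters to hold it. That window lacks the core.

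Across the 16 comparisons of PH3 with Air, the 10 genes gave 160 tests, of which 1 passed as higher in PH3 and 0 as lower. The gene that passed was Sqstm1, in kidney at 6 h. Unadjusted p was under 0.05 in 22 of the 160 tests, and the change lay above zero in 83. By comparison, unadjusted p was under 0.05 in 1.41% (lung at 24 h) to 15.1% (heart at 6 h) of all genes. The change lay above zero in 39.2% (brain at 3 h) to 54.8% (kidney at 6 h) of all genes. The median change of the 10 genes was 0.44 in kidney at 6 h and 0.25 in kidney at 3 h, against 0.02 and 0.01 over all genes tested. It was -0.36 in liver at 6 h, against 0.01 over all genes. In the other 13 comparisons it lay between -0.18 and 0.11. The map of changes shows this layout.

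**Figure D1:**
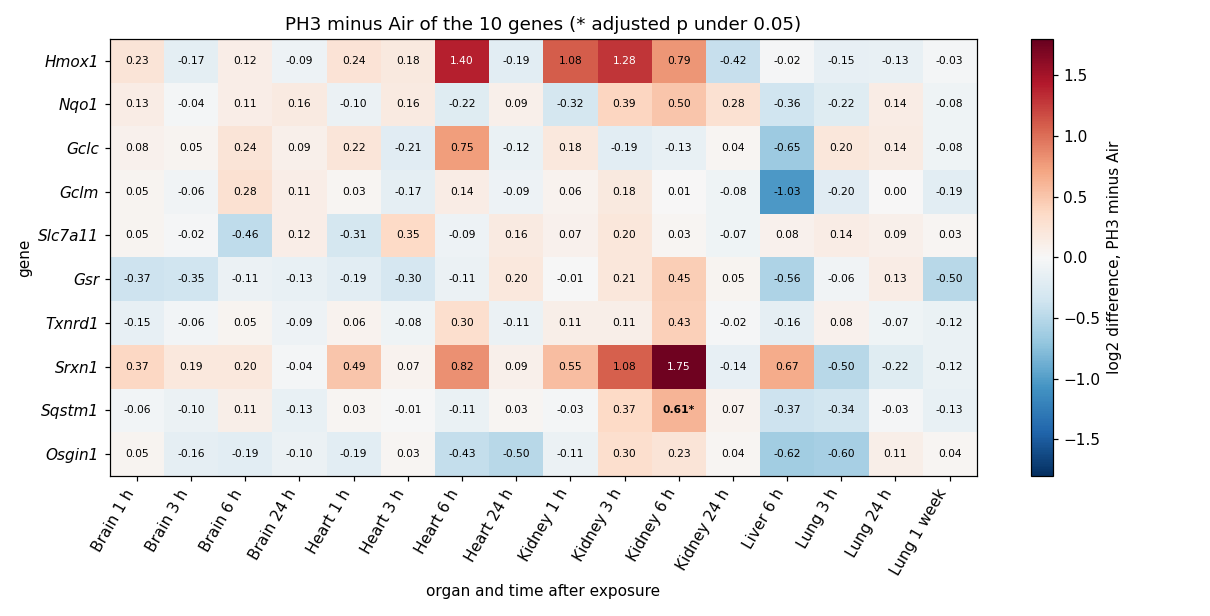
Log2 difference of PH3 minus Air of the 10 genes (rows) in the 16 comparisons (columns, by organ and time), red above zero and blue below, with an asterisk where the adjusted p was under 0.05. Kidney at 3 and 6 h is mostly red with 9 of 10 genes above zero, liver at 6 h is mostly blue with 2 of 10 above zero, and the asterisk stands at Sqstm1 in kidney at 6 h.

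In kidney, PH3 rats lay above Air rats without overlap in Hmox1, Srxn1, Sqstm1 and Nqo1 at 3 h and in Srxn1, Sqstm1 and Txnrd1 at 6 h, and in none of the 10 genes at 1 or 24 h. Over all genes, 0.223% passed in kidney at 1 h, 0.104% at 3 h, 0.127% at 6 h and 0.0149% at 24 h. Of the 10 genes 0, 0, 1 and 0 passed at these times, with unadjusted p under 0.05 in 1, 4, 4 and 0. Unadjusted p was under 0.05 in 9.97%, 7.29%, 7.78% and 2.37% of all genes. Separate groups, in either direction, were seen in 3.37%, 2.90%, 5.94% and 1.75% of all genes at the 4 times.

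Sqstm1, the autophagy receptor, was at 11.80, 11.88, 11.90 and 12.06 in PH3 kidneys at 6 h, against 11.25, 11.31, 11.30 and 11.34 in Air kidneys. All PH3 kidneys lay above all Air kidneys. The change was 0.61 ± 0.12, a 1.53-fold rise with a 95% interval of 0.37 to 0.85 on the log2 scale (adjusted p = 0.0332, limma). A further probe set of the gene gave 0.94 ± 0.18 (adjusted p = 0.0308 with all probe sets fitted together), and the other 2, whose mean level in kidney was under 4.0, gave 0.05 and -0.07. The call was lost with the mean of the gene's probe sets, where the change was 0.38 (adjusted p = 0.229). With the 8 arrays fitted alone the adjusted p was 0.0791, and of the 8 fits that leave out 1 of them, the call held only without PH3 rat 128 (adjusted p from 0.0318 to 0.157). At 3 h Sqstm1 was at 11.51, 11.69, 11.90 and 11.62 in PH3 kidneys, against 11.36, 11.23, 11.21 and 11.47 in Air kidneys, again without overlap, but the change of 0.37 ± 0.12 did not pass (adjusted p = 0.369). At 1 h and 24 h its changes were -0.03 and 0.07.

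Srxn1 encodes sulfiredoxin, which reactivates overoxidised peroxiredoxins. It had the largest change of the 10 genes in any comparison, at 6 h in kidney. Its signals were 8.78, 9.34, 7.94 and 9.42 in PH3 kidneys, against 7.19, 7.72, 6.81 and 6.74 in Air kidneys. Every PH3 kidney was above every Air kidney, by a mean of 1.75 ± 0.38, or 3.37-fold, just outside the threshold (adjusted p = 0.0534). A dimmer probe set of Srxn1 gave 0.90 ± 0.16 (adjusted p = 0.0261 with all probe sets fitted together), and the dimmest gave 0.08. The mean of its probe sets changed by 0.91 (adjusted p = 0.0205). The chosen probe set gave an adjusted p of 0.255 with the 8 arrays fitted alone. Of the 8 fits that leave out 1 of them it passed only without PH3 rat 140 (2.06, adjusted p = 0.0412), and without PH3 rat 141 the adjusted p was 0.257. At 3 h PH3 kidneys were at 8.75, 8.74, 8.73 and 8.24, against 7.07, 8.14, 7.15 and 7.77 in Air kidneys, without overlap (1.08 ± 0.38, adjusted p = 0.434). The groups overlapped at 1 h (0.55) and at 24 h (-0.14).

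Txnrd1, the cytosolic thioredoxin reductase, was at 10.82, 10.50, 10.76 and 11.10 in PH3 kidneys at 6 h, against 10.23, 10.45, 10.28 and 10.50 in Air kidneys. The lowest PH3 value was just above the highest Air value. The change was 0.43 ± 0.10 (adjusted p = 0.0993). It was 0.33 without PH3 rat 141, which had the highest signal, and of the 8 fits that leave out 1 array it passed only without PH3 rat 134 (0.53, adjusted p = 0.0253). A dimmer probe set gave 0.60 ± 0.18 (adjusted p = 0.301). At 1, 3 and 24 h the changes were 0.11, 0.11 and -0.02.

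Hmox1 encodes heme oxygenase 1, which degrades heme to biliverdin, carbon monoxide and iron. In kidney its largest difference was at 3 h. At 1 h PH3 kidneys were at 8.35, 7.94, 8.55 and 7.47, against 6.33, 7.66, 6.54 and 7.45 in Air kidneys (1.08 ± 0.30, adjusted p = 0.19). At 3 h they were at 7.33, 7.99, 8.56 and 8.43, against 6.88, 7.08, 6.36 and 6.85 (1.28 ± 0.30, or 2.44-fold, adjusted p = 0.12). The groups overlapped at 1 h and were apart at 3 h. Of the 8 fits that leave out 1 array, the difference at 3 h passed only without PH3 rat 105 (1.53, adjusted p = 0.0197). Without PH3 rat 122 it was 1.12 (adjusted p = 0.706), and the changes of Srxn1 and Sqstm1 at 3 h were then 1.04 and 0.29. Without PH3 rat 152, whose kidney had the hepatocyte signal given below, the changes at 3 h were 1.17 for Hmox1, 1.21 for Srxn1 and 0.39 for Sqstm1. At 6 h the change was 0.79 ± 0.30 (adjusted p = 0.426), and at 24 h it was -0.42 ± 0.30, with PH3 kidneys at 6.09 to 6.58 and Air kidneys at 6.53 to 6.98.

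**Figure D2:**
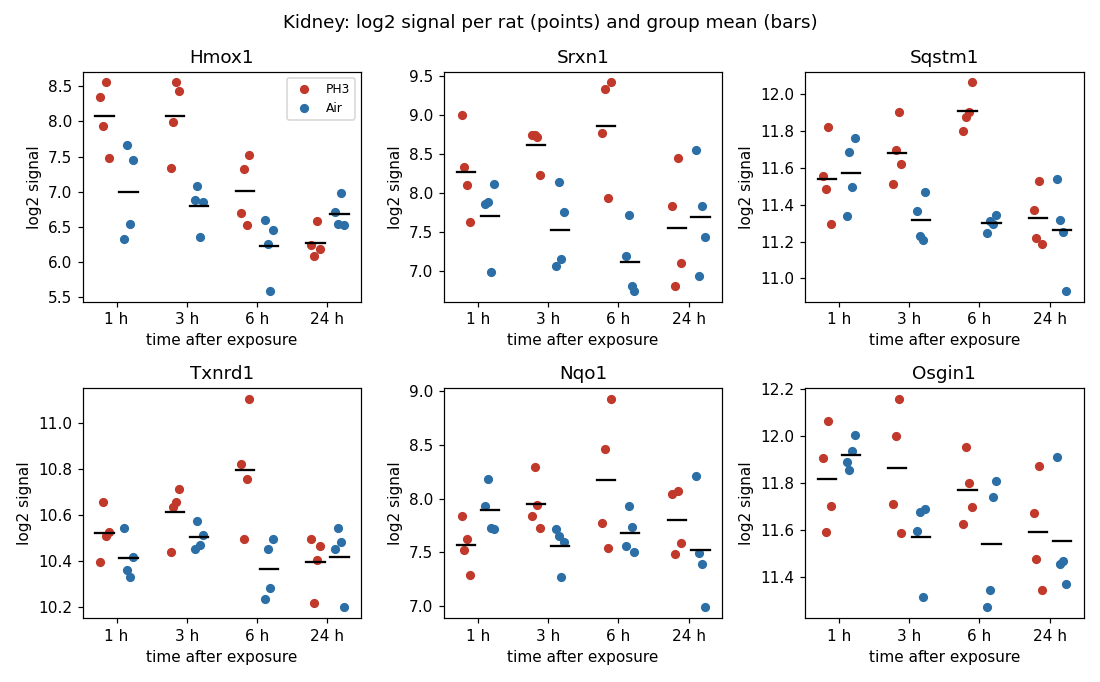
Log2 signal of 6 genes in each kidney (points, PH3 left and Air right at each time after exposure) with group means as bars, on separate vertical scales. Sqstm1, Srxn1 and Txnrd1 separate the groups at 6 h, where the lowest PH3 Sqstm1 signal is 11.80 and the highest Air signal 11.34, and Hmox1 separates them at 3 h.

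Nqo1, a quinone reductase, was the remaining gene without overlap at 3 h in kidney. It was at 7.84, 8.29, 7.94 and 7.72 in PH3 kidneys, against 7.72, 7.65, 7.27 and 7.59 in Air kidneys (0.39 ± 0.24, adjusted p = 0.737). At 6 h it was at 7.78, 8.46, 7.54 and 8.93 in PH3 kidneys, against 7.56, 7.93, 7.74 and 7.50 in Air kidneys, with PH3 rats 141 and 134 at the top (0.50 ± 0.24, adjusted p = 0.643). Osgin1, an oxidative stress induced growth inhibitor, had changes of -0.11, 0.30, 0.23 and 0.04 at 1, 3, 6 and 24 h, with overlap at each time. None of these passed.

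The glutathione genes overlapped between PH3 and Air kidneys at all 4 times. Gclc and Gclm encode the catalytic and the modifier subunit of glutamate cysteine ligase, the rate-limiting enzyme of glutathione synthesis. Their changes in kidney ran from -0.19 to 0.18 for Gclc and from -0.08 to 0.18 for Gclm over the 4 times. At 6 h Gclc was at 12.95, 12.43, 12.98 and 12.90 in PH3 kidneys, against 12.85, 12.99, 12.96 and 12.97 in Air kidneys. Gsr, glutathione reductase, had changes of -0.01, 0.21, 0.45 and 0.05 at 1, 3, 6 and 24 h, the largest with overlapping groups (adjusted p = 0.72). Slc7a11, the cystine importer, was under the 25th percentile of its array on 19 of 32 kidney arrays and its changes ran from -0.07 to 0.20.

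Hepatocyte and macrophage markers varied among the kidneys too. At 6 h the mean signal of 6 hepatocyte markers ran from 4.93 to 7.26 in PH3 kidneys and from 4.79 to 6.40 in Air kidneys, and 0 of 6 passed. That of 9 macrophage markers ran from 6.24 to 6.76 in PH3 kidneys and from 6.69 to 7.73 in Air kidneys, and 1 of 9 passed, as lower. At 3 h the hepatocyte markers ran from 5.87 to 10.5 in PH3 kidneys and from 6.07 to 7.49 in Air kidneys, with PH3 rat 152 highest. Their part in the results for the targets was not tested.

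In liver at 6 h, the only liver time with Air rats, Gclm and Gclc were lower in PH3 rats without overlap but did not pass, and Srxn1 lay higher, also without passing. Of all genes 0.238% passed there, and of the 10 genes 0 did. Unadjusted p was under 0.05 in 5 of the 10 genes and in 14.1% of all genes. Gclm was at 9.47, 9.28, 9.67 and 8.91 in PH3 livers, against 10.41, 10.71, 10.51 and 9.81 in Air livers. No PH3 liver reached the lowest Air liver. The change was -1.03 ± 0.20, or 2.04-fold lower, with a 95% interval of -1.46 to -0.60 (adjusted p = 0.0536). Gclc was at 9.09, 9.27, 9.10 and 8.72 in PH3 livers, against 9.53, 9.84, 9.81 and 9.60 in Air livers, and it too was without overlap (-0.65 ± 0.14, adjusted p = 0.064). A dimmer probe set of Gclc gave -0.89 ± 0.27 (adjusted p = 0.17). With the 8 arrays at 6 h fitted alone, both passed as lower, Gclc at adjusted p = 0.0378 and Gclm at 0.0389. Of the 8 fits that leave out 1 array, Gclc passed in 0 (adjusted p from 0.0676 to 0.197) and Gclm in 1, without PH3 rat 140 (adjusted p from 0.0401 to 0.174).

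Gsr, the enzyme that keeps glutathione reduced, was at 6.06, 6.31, 6.78 and 6.37 in PH3 livers, against 7.07, 7.07, 6.72 and 6.88 in Air livers (-0.56 ± 0.17, adjusted p = 0.159). Rat 140 alone of the PH3 rats reached into the Air range. Sqstm1 was at 11.56, 11.57, 11.55 and 11.59 in PH3 livers, against 11.61, 11.97, 12.25 and 11.90 in Air livers, without overlap (-0.37 ± 0.16, adjusted p = 0.319). Srxn1 went the other way, at 8.34, 8.13, 8.04 and 9.20 in PH3 livers, against 7.93, 7.95, 7.67 and 7.48 in Air livers, also without overlap (0.67 ± 0.22, adjusted p = 0.176). Without PH3 rat 141 its change was 0.41. Nqo1 (-0.36), Osgin1 (-0.62), Txnrd1 (-0.16), Hmox1 (-0.02) and Slc7a11 (0.08) overlapped between the groups. In all, 4 of the 10 genes did not overlap, against 9.61% of all genes. The mean of the 6 hepatocyte markers was 13.39 to 13.50 in PH3 livers and 13.41 to 13.46 in Air livers. That of the 9 macrophage markers was 8.96 to 9.01 in PH3 livers and 8.87 to 9.37 in Air livers, with medians of 8.99 and 9.35, and 0 of 9 passed. Their part in these results was not tested.

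In heart, Hmox1 and Gclc lay higher in PH3 rats at 6 h without overlap, with 1 rat far above the others, and neither passed. Of all genes, 0.0521% passed at 1 h, 0.238% at 3 h, 2.7% at 6 h and 0% at 24 h. Their unadjusted p was under 0.05 in 8.07%, 12.8%, 15.1% and 3.01%. Of the 10 genes 0 passed at any of these times, with unadjusted p under 0.05 in 3 at 6 h and in 0 at the others. At 1 h the changes ran from -0.31 to 0.49, at 3 h from -0.30 to 0.35 and at 24 h from -0.50 to 0.20. Osgin1 at 24 h was the 1 gene without overlap at these times, at 5.59, 5.97 and 5.86 in PH3 hearts, against 6.20 and 6.41 in Air hearts, where 21.4% of all genes were also apart. At 6 h Hmox1 was at 7.12, 7.87, 7.47 and 10.98 in PH3 hearts, against 6.94, 7.03, 6.97 and 6.91 in Air hearts, and rat 141 gave the highest of these. The groups did not overlap, and the change was 1.40 ± 0.45 (adjusted p = 0.0946). Without rat 141 it was 0.52 (adjusted p = 0.35). Gclc was at 6.68, 6.73, 6.76 and 8.18 in PH3 hearts, against 6.44, 6.18, 6.44 and 6.28 in Air hearts (0.75 ± 0.22, adjusted p = 0.0617), and its change without rat 141 was 0.39 (adjusted p = 0.316). It passed without any 1 of the other PH3 rats, at adjusted p = 0.0261 to 0.045.

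Srxn1 was at 6.85, 6.91, 5.88 and 9.07 in PH3 hearts at 6 h, against 6.38, 6.77, 6.54 and 5.74 in Air hearts (0.82 ± 0.51, adjusted p = 0.496). Txnrd1 was at 9.42, 9.60, 9.52 and 10.19 in PH3 hearts, against 9.39, 9.51, 9.34 and 9.29 in Air hearts (0.30 ± 0.11, adjusted p = 0.153). Rat 141 was again the highest in both, and without it the changes were 0.19 for Srxn1 and 0.13 for Txnrd1, neither passing. The remaining changes at 6 h ran from -0.43 for Osgin1 to 0.14 for Gclm, whereas Nqo1, Slc7a11, Gsr and Sqstm1 lay between -0.22 and -0.09. The mean of 4 brain markers was 4.13 to 6.48 in PH3 hearts at 6 h and 4.03 to 4.49 in Air hearts, 4.90 in rat 141, and 0 of 4 passed. That of 9 macrophage markers was 7.51 to 7.95 in PH3 hearts and 7.63 to 7.73 in Air hearts, with 1 of 9 passing as higher. Their part in these results was not tested.

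Apart from Hmox1 and Gclc, the groups overlapped in the other genes in heart at 6 h, and 10.5% of all genes did not. Rat 141 was measured in 4 organs at 6 h. Among the 4 PH3 rats it had the highest signal in 6 of the 10 genes in heart, 6 in kidney, 5 in liver and 5 in brain. How often rat 141 was highest over all genes was not counted, so these counts are descriptions. In heart its Hmox1 signal was 4.02 above the Air mean and its Srxn1 signal 2.72 above, while its Osgin1 signal was -1.03 from it. In kidney its Srxn1 was 2.31 above the Air mean, and in liver 1.44 above. In liver the same rat had the lowest Gclc, Gclm, Txnrd1 and Osgin1 signals of the 4.

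**Figure D3:**
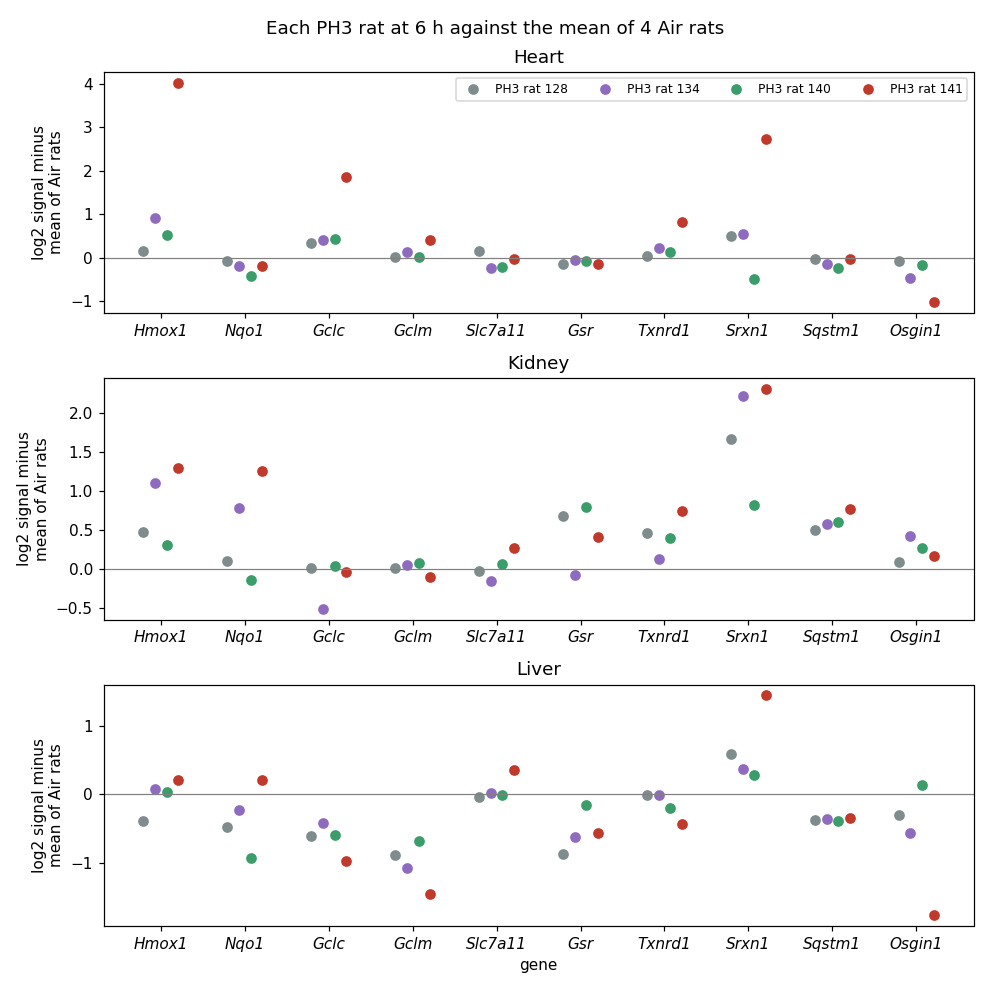
Log2 signal of each PH3 rat at 6 h minus the mean of the 4 Air rats of the organ, for the 10 genes in heart, kidney and liver, with 1 colour per rat and separate vertical scales. Rat 141 is 4.02 above the Air mean for Hmox1 in heart, apart from the other 3 rats, whereas in kidney all 4 rats lie above zero for Sqstm1 and Srxn1.

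In brain and lung no target passed, and the brain groups overlapped in every target. Of all genes 0.00744% passed in brain at 1 h, 0.00744% at 3 h, 0.00744% at 6 h and 0.0298% at 24 h. The changes of the 10 genes in brain ran from -0.46 for Slc7a11 at 6 h to 0.37 for Srxn1 at 1 h. Srxn1 at 1 h was at 8.67, 8.85, 8.03 and 8.24 in PH3 brains, against 8.24, 8.09, 7.67 and 8.30 in Air brains (adjusted p = 0.959). Gsr had the lowest unadjusted p at 1 h and 3 h, with changes of -0.37 and -0.35 and overlapping groups. Slc7a11 at 6 h was at 7.80, 8.40, 7.73 and 7.41 in PH3 brains, against 8.56, 8.16, 8.14 and 8.32 in Air brains (adjusted p = 1.00). Unadjusted p was under 0.05 in 2, 1, 1 and 0 of the 10 genes at 1, 3, 6 and 24 h. Over all genes it was so in 5.19%, 4.03%, 3.21% and 12.2%. The mean of 6 hepatocyte markers at 24 h was 9.45 in Air rat 84 and 9.59 in PH3 rat 85. On the other brain arrays at 24 h it was 4.28 to 6.49. Osgin1 was highest of its group in these rats, at 5.57 and 5.35. The median change of these markers was 1.16 at 1 h and 1.15 at 6 h, and 0 of 6 passed. Their part in these results was not tested.

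In lung 0.298% of all genes passed at 3 h, 0% at 24 h and 0% at 1 week. At 3 h, with 2 Air rats, Sqstm1 was at 10.73, 10.83, 10.67 and 10.77 in PH3 lungs, against 10.97 and 11.20 in Air lungs (-0.34 ± 0.15, adjusted p = 0.403). Osgin1 was at 6.47, 6.51, 6.97 and 6.67 in PH3 lungs, against 7.29 and 7.21 in Air lungs (-0.60 ± 0.33, adjusted p = 0.48). With array weights both passed as lower, at adjusted p = 0.0372 for Sqstm1 and 0.0264 for Osgin1. Of 7 alternative fits Sqstm1 passed in this 1 only. Its change in them ran from -0.35 to -0.07, with adjusted p up to 0.877. Some other probe sets of Sqstm1 gave changes above zero, as given below. In all, 5 of the 10 genes did not overlap at 3 h, against 41.3% of all genes. At 24 h the changes of the 10 genes were within -0.22 and 0.14, and at 1 week within -0.50, for Gsr, and 0.04. Unadjusted p was under 0.05 in 0 of the 10 at either time, against 1.41% and 2.12% of all genes.

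Whether the response differed between organs was tested at each time with an F test of the PH3 minus Air difference. It was called for 0.201% of all genes at 1 h, 1.19% at 3 h, 2.66% at 6 h and 0.268% at 24 h. Of the 10 genes 0 passed at 1, 3 and 24 h, and 4 passed at 6 h, over brain, heart, kidney and liver: Sqstm1 (adjusted p = 4.70e-05), Gclm (0.000124), Gclc (0.000129) and Txnrd1 (0.0421). Sqstm1 was up in kidney, at 0.61, and was -0.37 in liver, -0.11 in heart and 0.11 in brain. Gclm was -1.03 in liver and 0.01 to 0.28 in the other organs. Gclc was -0.65 in liver, -0.13 in kidney, 0.24 in brain and 0.75 in heart, and Txnrd1 was -0.16 in liver and 0.43 in kidney. Over the 32 fits that leave out 1 of the arrays at 6 h, Sqstm1, Gclm and Gclc passed each time. Each fit dropped 1 organ of a rat and kept any others of that rat. Rat 141, with Gclc 1.85 above the Air mean in heart and -0.97 from it in liver, was never left out whole. Dependence on that rat was therefore not tested. Txnrd1 passed in 16 of the 32, and its adjusted p was highest, at 0.163, without liver PH3 rat 141. Hmox1 (adjusted p = 0.112), Nqo1 (0.106), Gsr (0.285), Srxn1 (0.329), Slc7a11 (0.661) and Osgin1 (0.709) did not pass.

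**Figure D4:**
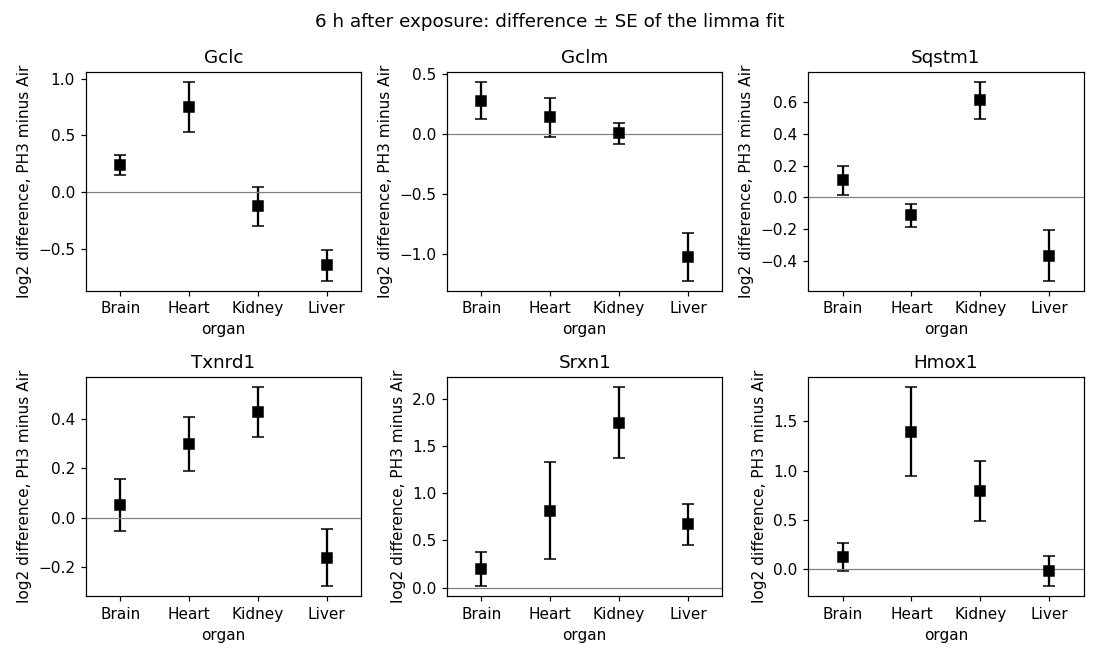
Log2 difference of PH3 minus Air at 6 h (squares) with its standard error in the limma fit (bars) by organ for 6 genes, on separate vertical scales. Gclm is -1.03 in liver and near zero or above in the other organs, Sqstm1 is 0.61 in kidney and -0.37 in liver, and Srxn1 lies above zero in all 4 organs.

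Whether it differed between times within an organ was tested likewise. The F test was called for 0% of all genes in brain, 0.268% in heart, 0% in kidney and 0% in lung, and for 0 of the 10 genes in each. Unadjusted, 5 of the 40 tests of the 10 genes had p under 0.05. These were Gclc in heart and Hmox1, Srxn1, Sqstm1 and Txnrd1 in kidney. The share of all genes with such a p was not counted, so no excess can be read from this count. In kidney the smallest adjusted p of limma's F test were 0.605 for Hmox1 and 0.607 for Sqstm1, so the order of times described above is not backed by a passing test.

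Without exposure, the organs differed widely in these genes. Air levels were compared over 10 pairs of organs with 4 to 16 Air arrays each, and 89 of the 100 tests of the 10 genes passed. Most genes of the array also differ between organs: 82.6% for brain and heart, 82.6% for brain and kidney, 78.1% for brain and liver, 76.9% for brain and lung, 75.2% for heart and kidney, 65.1% for heart and liver, 76.9% for heart and lung, 61% for kidney and liver, 70.7% for kidney and lung, and 70.6% for liver and lung. It is not stated whether the authors normalised the organs together, so a level set across organs carries that limit.

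Kidney had the highest level of Gclc, Gclm, Gsr, Osgin1 and Txnrd1. Gclc was at 12.85 ± 0.22 in kidney (SD, n = 16), 9.69 in liver, 7.58 in brain, 6.95 in lung and 6.27 in heart, and each step in this order passed. Gclm was at 11.94 ± 0.16 in kidney, 10.36 in liver, 8.13 in heart, 8.05 in lung and 6.65 in brain, and heart and lung did not differ beyond their spread. Osgin1 was at 11.65 in kidney, 10.58 in liver, 7.14 in lung, 6.52 in heart and 5.08 in brain. Gsr was at 7.54 in kidney, 6.94 in liver, 5.67 in lung, 5.19 in heart and 4.77 in brain. All steps of these 2 genes passed. Txnrd1 spanned less, with 10.42 in kidney, 10.03 in liver, 9.46 in lung, 9.38 in heart and 9.03 in brain, of which lung and heart did not differ beyond their spread.

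Liver had the highest level of Hmox1, Nqo1 and Sqstm1. Hmox1 was at 8.98 ± 0.30 in liver (SD, n = 4), 8.17 in lung, 6.85 in heart, 6.68 in kidney and 5.71 in brain, and heart and kidney did not differ beyond their spread. Nqo1 was at 10.02 in liver, 9.55 in lung, 8.24 in heart, 7.66 in kidney and 7.42 in brain, and Sqstm1 at 11.93 in liver, 11.59 in brain, 11.36 in kidney, 11.07 in lung and 10.90 in heart, with each step passing. Slc7a11 was a brain gene here, at 8.09 ± 0.37 in brain (SD, n = 16) and 3.84 to 4.02 elsewhere, where no pair of organs passed. Srxn1 was at 7.84 in brain, 7.76 in liver and 7.51 in kidney, where liver did not differ from either beyond the spread but brain and kidney did, and at 6.22 in heart and 5.71 in lung. Its SD over Air rats was 0.54 in kidney and 0.58 in heart, the widest of its organs.

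**Figure D5:**
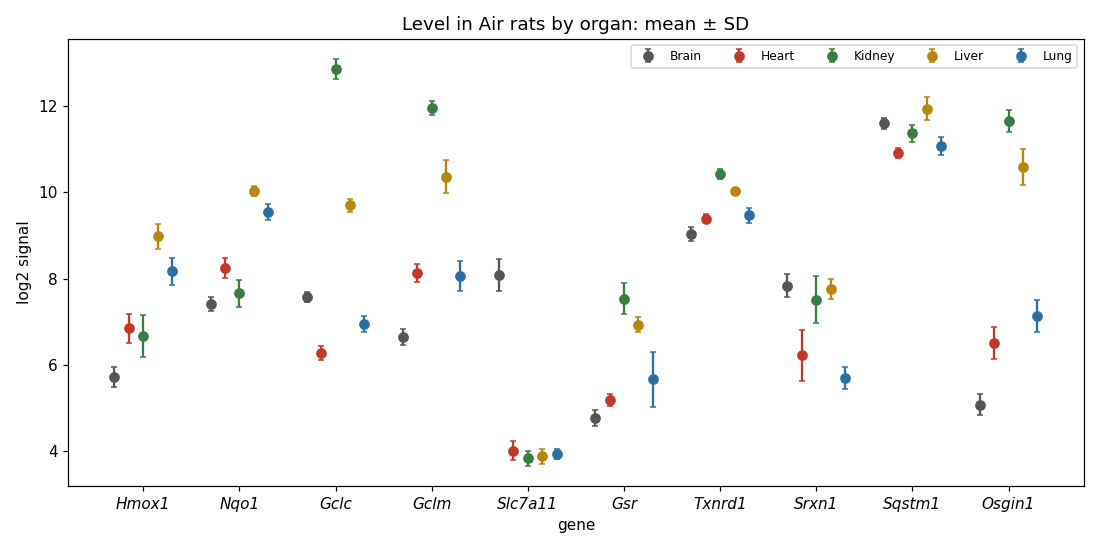
Mean log2 signal ± SD of the 10 genes in Air rats by organ (colours), with 16 arrays of brain, 14 of heart, 16 of kidney, 4 of liver and 10 of lung. Gclc and Gclm are highest in kidney, Hmox1 and Nqo1 in liver, and Slc7a11 in brain at 8.09 against 3.84 to 4.02 in the other organs (levels of different genes come from different probe sets and are not comparable).

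Among the genes that control NRF2, Maff rose in kidney and heart and no other passed, although with array weights Rbx1, a subunit of the KEAP1 ubiquitin ligase, also passed as higher in heart at 6 h (0.26, adjusted p = 0.00784). Of 11 regulators listed, 10 were measured, and 3 of their 160 tests passed, all of them Maff, a small MAF partner of NRF2. In kidney at 1 h Maff was at 7.59 to 9.05 in PH3 rats and 6.33 to 7.30 in Air rats (1.65 ± 0.36, adjusted p = 0.0422). At 3 h it was at 6.84 to 8.92 in PH3 kidneys and 5.20 to 6.46 in Air kidneys (1.84 ± 0.36, adjusted p = 0.0242). The groups were apart at both times, as they were in 3.37% and 2.90% of all genes. Of all genes 0.223% passed in kidney at 1 h, 0.104% in kidney at 3 h and 2.7% in heart at 6 h. In heart at 6 h it was at 7.15 to 9.74 in PH3 rats and 6.64 to 7.09 in Air rats (1.09 ± 0.30, adjusted p = 0.0476), and 0.50 without rat 141 (adjusted p = 0.0829). All 3 calls were lost where the compared groups were fitted alone, at adjusted p = 0.328, 0.634 and 0.339. In kidney, Maff at 1 h passed in 1 of 8 fits that leave out an array, without PH3 rat 116. At 3 h it passed in 2 of 8, without PH3 rat 105 or Air rat 108. Without PH3 rat 122 its change at 3 h was 1.47 (adjusted p = 0.235). In heart it passed in 3 of 8, without PH3 rat 128, 134 or 140.

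Nfe2l2 itself did not pass in any comparison, with changes of -0.48 in liver at 6 h to 0.68 in kidney at 1 h and a lowest adjusted p of 0.234. Keap1 had changes of -0.34 in heart at 6 h to 0.22 in heart at 24 h, with a lowest adjusted p of 0.122. These are mRNA levels, whereas NRF2 is known to be controlled mainly through the stability of its protein.

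Of 44 other genes described as NRF2 targets, 34 were measured, and 1 of their 544 tests passed. That was Abcc4, an efflux pump, lower in PH3 hearts at 6 h at 7.13 to 7.65, against 7.88 to 7.96 in Air hearts (-0.56 ± 0.15, adjusted p = 0.0376). In that comparison 1 of the 34 passed, against 2.7% of all genes. The PH3 and Air groups did not overlap in Abcc4, nor did they in 10.5% of all genes there. The call was lost without rat 141 (-0.48, adjusted p = 0.168). It held in 1 of the 8 fits that leave out an array, without PH3 rat 140. In kidney at 6 h, where Sqstm1 passed, 24 of the 34 changes lay above zero, with a median of 0.14 and 10 at an unadjusted p under 0.05, against 54.8% and 7.78% of all genes. In liver at 6 h 5 of 34 lay above zero, with a median of -0.10, against 51.5% of all genes. There 5 of 34 had an unadjusted p under 0.05, against 14.1% of all genes.

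Among all 1894 genes whose 16 changes had an SD of at least 0.3, those most like Sqstm1 were Ihh (Pearson r = 0.88), Cldn22 (0.82) and Tuba8 (0.78). Among the 10 genes themselves the highest r of the 16 changes was 0.81, between Nqo1 and Sqstm1, followed by 0.75 between Nqo1 and Osgin1 and 0.74 between Hmox1 and Srxn1, and Gclc and Gclm had 0.69. The lowest was -0.45, between Gclc and Slc7a11. The 16 points are not independent, since organs share rats, and these values are descriptions.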

How the data were processed

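The deposited values are log2 signals of 31139 probe sets on 125 arrays, made by the authors with RMA (background correction, quantile normalisation and summary of a set's probes), with Affymetrix Expression Console and Partek named without versions, per the submitters' processing notes. Of the probe sets, 19068 had 1 gene symbol in the platform annotation, 573 had several and 11498 had none, and only the first were used. A gene was read from the probe set that was brightest on average in the organ, or on all arrays where organs were compared. In R 4.3.3, all arrays of an organ entered 1 model (limma 3.58.1) with a coefficient for each exposure at each time, with eBayes and a trend, and Benjamini-Hochberg adjustment over 13438 genes per comparison (threshold 0.05). Groups of 2 to 4 thus shared an estimate of the spread. Differences between organs used all arrays in 1 fit, and Air levels all Air arrays. The number of arrays limits the precision. Apart from exposure, time and organ, the labels tell the rats apart only by their numbers. Within an organ, the p-values measure the spread between rats. The fits across organs count organs of the same rat as separate arrays.

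The rat numbers do not pair PH3 with Air, since these were different rats. They link organs of the same rat, so the fits across organs were repeated with the rat as a replicate block. The consensus correlation of the block was 0.0052 over all arrays and 0.0037 over Air arrays. Rats 134 (heart, kidney, liver) and 135 (brain), both PH3 at 6 h, were taken as 2 rats, as labelled. The 10 genes, the lists and the tests were chosen with earlier results of these data known. The genes named besides the 10 are Nfe2l2, Keap1, list genes that passed, and the 3 genes with the highest Pearson r to a target that passed, among genes whose changes had an SD of at least 0.3. Rbx1 and the genes most like Hmox1 fall outside this rule and were chosen after their values were seen. Alternatives changed the arrays in the fit, weights, the trend, a filter on low signal, the scaling and the probe set. The fits were tested on simulated data. Promoter sequences are those of RefSeq for GRCr8. Values were read with the R package data.table and drawn with matplotlib in Python. Blood was not analysed here.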

Additional observations from a re-analysis of the deposited data

Results flagged for a closer look

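Of 280 groups of 4 rats and genes, 10 held a rat that lay far from the other 3, where chance gives about 1 in 20 groups. In brain, PH3 rat 85 had an Osgin1 signal of 5.35 at 24 h, against 4.90 in the nearest rat. That array also had the hepatocyte signal given above. Air rat 89 had 6.94 for Gclm at 24 h, against 6.65. PH3 rat 122 had 7.75 for Gclc at 3 h, against 7.70, and PH3 rat 141 had 6.42 for Gclm at 6 h, the low value against 6.88. In heart, PH3 rat 141 had 8.18 for Gclc at 6 h, against 6.76. In kidney at 3 h, PH3 rat 111 had 12.14 for Gclm, against 11.98, PH3 rat 122 had 4.50 for Slc7a11, against 3.87, and PH3 rat 152 had 8.24 for Srxn1, the low value against 8.73. In kidney at 6 h, PH3 rat 134 had 12.43 for Gclc, the low value against 12.90, and in liver at 6 h PH3 rat 141 had 4.24 for Slc7a11, against 3.91.

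The difference between PH3 and Air varied between organs at 6 h by limma's F test for Sqstm1 (adjusted p = 4.70e-05), Gclm (0.000124), Gclc (0.000129) and Txnrd1 (0.0421).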

How the results depend on the processing

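The count of target calls was small and moved with the fit. Calls higher in PH3 were 1 as reported, 0 with the compared groups fitted alone, 4 with array weights, 3 after removing the third of genes that was dimmest, 2 after subtracting array medians, 2 with the mean of a gene's probe sets, neither of them Sqstm1, and 0 to 4 where 1 array was left out. Calls lower were 0 as reported, 2 with the groups fitted alone, 4 with array weights, and 0 to 2 where 1 array was left out. Regulator calls were 3 as reported, 0 with the groups fitted alone, 4 with array weights, 2 without the trend, 2 with the mean of probe sets, 1 with array medians subtracted, and 1 to 3 where 1 array was left out. Calls among other targets were 1 as reported and 13 with array weights. Those 13 lay in heart and kidney at 6 h and in lung at 3 h, in both directions. Calls among other targets were 0 without heart PH3 rat 141 at 6 h and brain Air rats 89 and 145 at 24 h. That alternative was chosen after seeing the data. They were 0 to 2 where 1 array was left out. Calls of a difference between organs were 4, or 3 to 6 where 1 array was left out, and 4 with the rat as replicate block. Air level calls were 89, and 89 with the rat as replicate block. No paired analysis of PH3 against Air was possible because they were different rats. The sign turned in some probe sets other than the chosen ones, most of them dim. Sqstm1 gave -0.026 in kidney at 3 h, -0.070 in kidney at 6 h and 0.12 in liver at 6 h. In lung at 3 h Sqstm1 gave 0.0586 and 0.0588, the last from a brighter set, against -0.34 in the chosen set. Srxn1 gave -0.039 in liver at 6 h. The causes were not tested. Slc7a11 outside brain lay near the lowest signals of its arrays.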

Other observations

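The 3 PH3 livers at 3 h have no Air livers beside them and entered no comparison. Their Srxn1 signals were 8.26 to 8.60, their Gclc signals 8.90 to 9.43 and their Gclm signals 9.41 to 9.99. Osgin1 varied most among them, between 8.42 and 11.26. Hmox1 was at 8.58 to 8.70, Nqo1 at 9.99 to 10.29, Sqstm1 at 10.98 to 11.79, Txnrd1 at 9.66 to 10.14, Gsr at 6.39 to 6.76 and Slc7a11 at 3.78 to 4.18.

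Among genes with an SD of at least 0.3, the 3 whose 16 changes were most like those of Hmox1, chosen after the values were seen, were Tnfrsf12a (Pearson r = 0.94), B4galt1 (0.94) and Sgms2 (0.89). The largest of the 16 changes of Hmox1, 1.40 in heart at 6 h, was 0.52 without PH3 rat 141. Neither r nor the change of Tnfrsf12a is given without that rat, and these values are descriptions. B4galt1 encodes a galactosyltransferase, Sgms2 a sphingomyelin synthase and Tnfrsf12a the receptor of the cytokine TWEAK. Tnfrsf12a changed by 1.75 ± 0.29 in kidney at 1 h, 2.44 ± 0.29 at 3 h and 1.48 ± 0.29 at 6 h, and by 2.24 ± 0.39 in heart at 6 h, all of which passed.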
